A study of Homo sapiens with 2 samples.

Results

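The genes described here are the protein-coding genes of chromosome 19 whose symbol is ZNF followed by a number and nothing else. The deposited RNA-Seq table held 238 such genes, and the 223 whose reads in parental and CARM1 KO cells sum to at least 50 are the members described below, among 14527 genes of the whole table that reached the same minimum. The reads summed over both libraries chose the members, so a gene read in only one of the libraries could enter. The remaining 15 genes are accounted for further on.

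The series compared A1847, a human ovarian cancer cell line with high CARM1, with a derivative in which CARM1 was knocked out with a lentiviral CRISPR vector carrying a CARM1 guide RNA. CARM1 is an arginine methyltransferase that acts on histones and on chromatin proteins. Each condition was 1 library of total RNA, the parental control (CARM1 wild type) and CARM1 KO, which is 1 clone, both from cells grown in RPMI medium with fetal bovine serum. With 1 library per group no difference has a replicate check, so every fold below compares these libraries, a clone effect cannot be told apart from an effect of the knockout, and fewer cells with a transcript cannot be told apart from less RNA per cell.

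Most zinc-finger genes of this chromosome encode proteins with an array of C2H2 zinc fingers, which bind DNA, and many carry a KRAB domain near the amino end. A KRAB domain recruits TRIM28, which brings the histone methyltransferase SETDB1 and heterochromatin proteins to the bound site, and many of these proteins bind transposable elements. The genes arose by tandem duplication and lie in clusters, so neighbours often resemble each other in sequence.

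Library totals were 30741953 (parental) and 32300391 (CARM1 KO) reads, and where a pair of read counts is given below, parental comes first. The TMM method of edgeR set the scale between the libraries, and folds are given with exact 95% binomial intervals, which cover counting error only. CARM1, the targeted gene, had 975 and 380 reads and was 2.63-fold lower (interval 2.33 to 2.97). Of 15 ovarian tumour markers fixed for the line, 8 had at least 50 reads, and all 8 were more than 2-fold higher in CARM1 KO cells. KRT8, an epithelial keratin, had 17600 and 70370 reads, and PAX8, a transcription factor of Müllerian epithelium, had 311 and 1149 reads. KRT19 had 45 and 0 reads, ESR1 was at 0 in both libraries, WT1 had 8 and 1 reads, and MUC16, WFDC2, CLDN3 and CLDN4 had at most 10 reads. Of 8 markers of other cells, PTPRC, CD3E and VWF had at most 6 reads in either library, while CD68 (400 and 1644 reads) and COL1A1 (131 and 537 reads) were higher in CARM1 KO cells and LUM (61 and 1), DCN (24 and 0) and ACTA2 (28564 and 38) were lower. The summed level of these 8 markers was 170 in parental and 25.9 in CARM1 KO cells in RPKM, the TMM-scaled reads per kilobase of annotated exon and per 1000000 reads of the library. ACTA2 alone made up 163 RPKM of the parental sum and 0.212 of the CARM1 KO sum, while CD68 made up 5.94 and 23.8. The libraries therefore differed in many genes besides CARM1, and the part of these differences in the results below was not tested.

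As a whole the ZNF genes were more often far higher than far lower in CARM1 KO cells. Of the 223 members, 47 (21.1%) were more than 3-fold higher, against 11.4% of all 14527 genes, and 3 (1.35%) were more than 3-fold lower, against 8.39% of all genes. At a 2-fold limit 60 members were higher and 15 were lower, against 18.1% and 15.0% of all genes, and 148 members stayed within 2-fold. When edgeR's exact test with an assumed coefficient of variation of 0.4 and an FDR under 0.05 was required as well, 10 of the 47 remained, beside 2.19% of all genes under the same requirement, and 7 of the 10 lie in the ZNF101 to ZNF254 cluster described below. The median log2 fold change of the members was 0.14, near the 0.01 of all genes, and the members ran from -1.79 to 3.37. The difference from all genes was thus larger at both ends of the distribution, with more members far higher and fewer far lower, than in its middle. Outside ZNF101 to ZNF254, 25 of 189 members (13.2%) were more than 3-fold higher, near the share of all genes. Of these 189, 3 (1.59%) were more than 3-fold lower.

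The members' reads summed to 102073 in parental and 144743 in CARM1 KO cells, 0.332% and 0.448% of all reads. Other protein-coding genes of chromosome 19 did not show the same excess. Among 676 of them without a zinc-finger symbol, 36 (5.33%) were more than 3-fold higher, 66 were more than 3-fold lower, and the median log2 fold change was -0.23. Among 214 numbered ZNF genes of other chromosomes, 23 (10.7%) were more than 3-fold higher and 12 were more than 3-fold lower, with a median of -0.13.

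**Figure D1:**
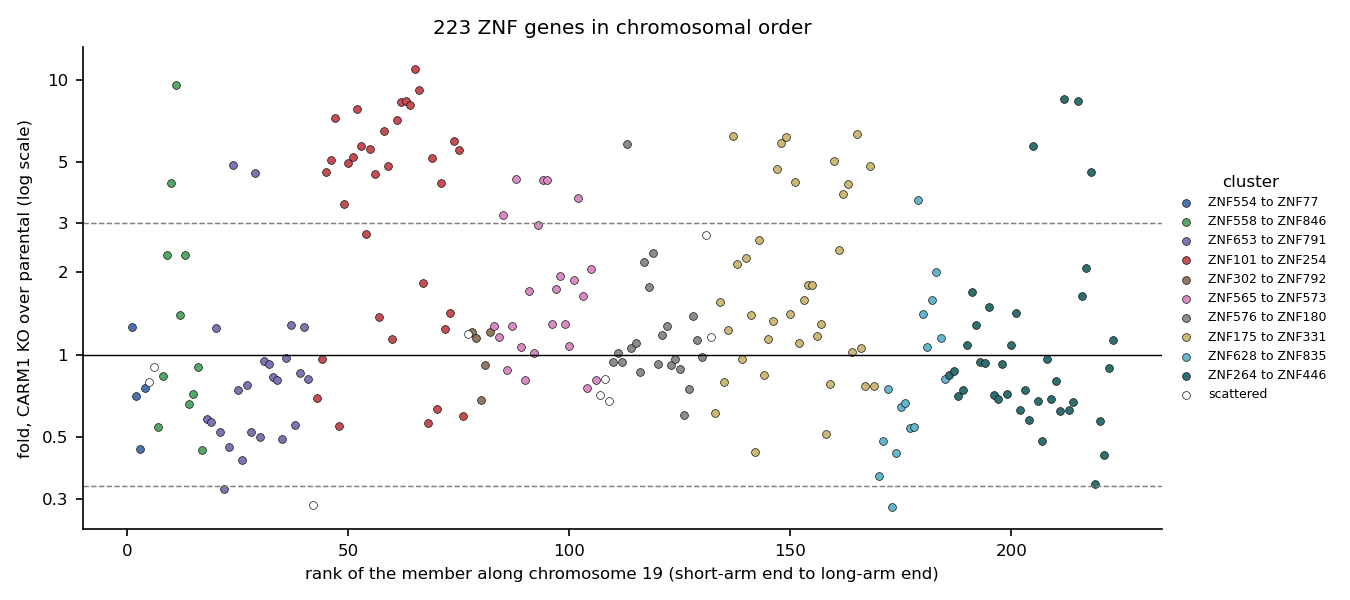
Fold of each of the 223 members, CARM1 KO over parental after TMM scaling (vertical axis, log scale), against its rank along chromosome 19 (horizontal axis); each point is 1 gene, colours mark the 10 clusters, open points are scattered members, and dashed lines mark 3-fold. The ZNF101 to ZNF254 cluster holds 22 of the 47 points above the upper line.

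Along the chromosome, genes less than 500 kb apart were joined into clusters, which placed 214 members in 10 clusters and left 9 scattered. Each cluster is named by its first and last member, and positions are those of GRCh37. The cluster that stood apart runs from ZNF101 to ZNF254 (chr19:19779605-24312770), on the short arm up to the centromere. In it 22 of 34 members (64.7%) were more than 3-fold higher, none was more than 2-fold lower, and the median log2 fold change was 2.26. In the other clusters and the scattered genes, 25 of 189 members (13.2%) were more than 3-fold higher, near the 11.4% of all genes. The median of these 189 was 0.02. The cluster's reads summed to 12389 and 37790, 2.98-fold higher (interval 2.92 to 3.04), and its share of all members' reads went from 12.1% to 26.1%.

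**Figure D2:**
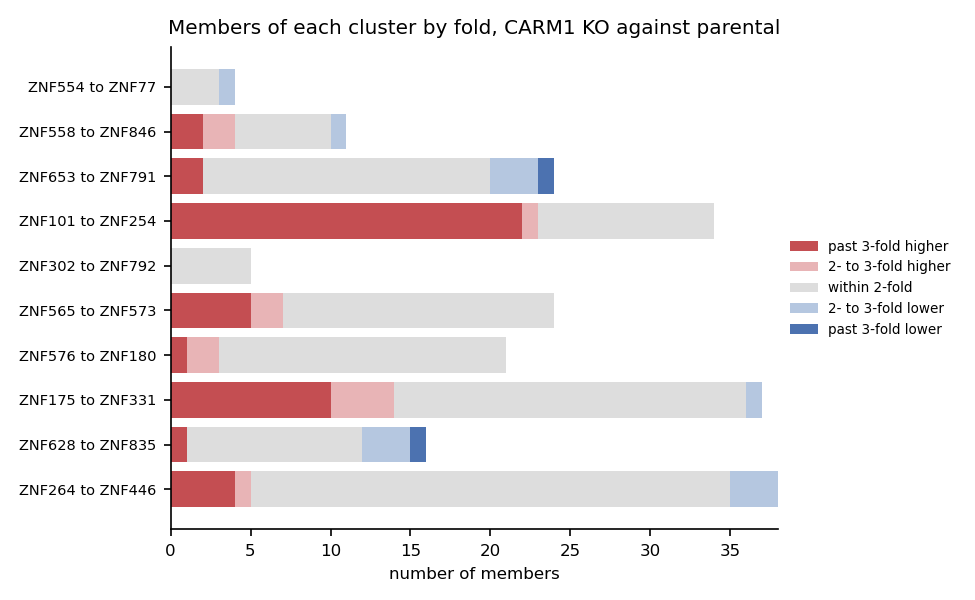
Number of members of each cluster (horizontal bars, clusters in chromosomal order from top to bottom) that were past 3-fold higher, 2- to 3-fold higher, within 2-fold, 2- to 3-fold lower or past 3-fold lower in CARM1 KO than in parental cells. ZNF101 to ZNF254 has 22 of 34 members past 3-fold higher, and ZNF175 to ZNF331 follows with 10 of 37.

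Because the genes of this cluster arose by duplication, the sequence just before their start sites was examined. RefSeq promoter sequences were found for 195 of the 223 members and for 27 of the 34 in the cluster, of which 16 were more than 3-fold higher and 11 were not. Each of the 27 matched GRCh37 at 1 place. The lines below give the 200 bases before the RefSeq start, 5′ to 3′ on the gene's strand, for 4 members that were more than 3-fold higher (ZNF714, ZNF431, ZNF100 and ZNF208) and 3 that were not (ZNF91, ZNF254 and ZNF675), to show how alike they are. Capitals mark TCCAATCAGG, the 10 bases shared by most of these promoters, which hold a CCAAT box, and TCTTCTGTCACT, the 12 bases whose share differed most between the higher members and the rest.
ZNF714, chr19:21264809-21265008, plus strand: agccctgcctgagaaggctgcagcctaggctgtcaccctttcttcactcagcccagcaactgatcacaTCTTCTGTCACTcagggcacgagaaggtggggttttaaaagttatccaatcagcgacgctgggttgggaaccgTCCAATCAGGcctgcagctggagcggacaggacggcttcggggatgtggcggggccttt
ZNF431, chr19:21324643-21324842, plus strand: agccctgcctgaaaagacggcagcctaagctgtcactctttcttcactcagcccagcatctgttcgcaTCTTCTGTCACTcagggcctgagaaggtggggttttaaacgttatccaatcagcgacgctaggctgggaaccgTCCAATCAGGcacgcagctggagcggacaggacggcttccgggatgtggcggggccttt
ZNF100, chr19:21950382-21950581, minus strand: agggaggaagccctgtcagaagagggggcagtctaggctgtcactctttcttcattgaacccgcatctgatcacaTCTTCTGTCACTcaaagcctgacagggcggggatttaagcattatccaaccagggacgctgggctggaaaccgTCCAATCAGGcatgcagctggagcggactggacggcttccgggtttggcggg
ZNF208, chr19:22193746-22193945, minus strand: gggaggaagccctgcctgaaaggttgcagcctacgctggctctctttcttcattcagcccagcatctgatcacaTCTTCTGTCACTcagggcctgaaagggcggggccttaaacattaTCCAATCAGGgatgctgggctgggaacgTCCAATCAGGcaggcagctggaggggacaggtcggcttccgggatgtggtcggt
ZNF91, chr19:23578274-23578473, minus strand: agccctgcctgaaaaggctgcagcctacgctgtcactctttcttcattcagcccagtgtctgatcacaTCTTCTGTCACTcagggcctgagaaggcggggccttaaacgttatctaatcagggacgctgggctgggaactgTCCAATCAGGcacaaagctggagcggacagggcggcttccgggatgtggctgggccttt
ZNF254, chr19:24269789-24269988, plus strand: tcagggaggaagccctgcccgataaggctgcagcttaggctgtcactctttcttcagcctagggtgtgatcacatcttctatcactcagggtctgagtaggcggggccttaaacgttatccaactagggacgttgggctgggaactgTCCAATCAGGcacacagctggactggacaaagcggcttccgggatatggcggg
ZNF675, chr19:23870015-23870214, minus strand: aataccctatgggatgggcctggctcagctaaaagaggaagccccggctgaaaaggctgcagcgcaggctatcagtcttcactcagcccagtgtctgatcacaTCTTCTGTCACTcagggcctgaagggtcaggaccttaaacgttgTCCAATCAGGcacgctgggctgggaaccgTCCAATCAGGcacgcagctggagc

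Searched on both strands, TCCAATCAGG stood in 25 of the 27 promoters of the cluster, in 32 copies that were all on the gene's strand and began at a median of 58 bases before the start (24 to 88), and 7 of the 25 held 2 copies. It did not separate the members by their fold, since it stood in 14 of 16 that were more than 3-fold higher and in 11 of 11 that were not. Among all 27305 RefSeq promoters it was found in 0.388%. Of the other clusters, ZNF653 to ZNF791 held it in 14 of 23 promoters and ZNF554 to ZNF77 in 2 of 4, and none of 23 higher members outside ZNF101 to ZNF254 held it. TCTTCTGTCACT stood in 13 of the 16 higher members and in 3 of the 11 others, against 0.0842% of all promoters. It was picked from all stretches of that length for this difference, so the split is a description only. ZNF91, which holds both stretches, was under 2-fold, and ZNF257, which holds neither, was among the largest rises.

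The ratio of observed to expected CpG in the promoter was low in the cluster. Its median was 0.448 over the 27 promoters, 0.799 over 168 promoters of members outside and 0.580 over all promoters. Of the other clusters, ZNF653 to ZNF791 had the lowest median, 0.613 over 23 promoters. Within ZNF101 to ZNF254 the median was 0.420 for the 16 higher members and 0.493 for the 11 others. Outside ZNF101 to ZNF254 it was 0.810 for 23 higher members and 0.799 for 145 others.

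ZNF676 had the largest rise of all members, from 31 to 347 reads, 10.9-fold (interval 7.56 to 16.3). ZNF43 had 164 and 1391 reads, 8.28-fold higher (7.04 to 9.80). Beside it lie ZNF208 with 76 and 651 reads (8.37-fold, 6.59 to 10.8), of whose stretches 21.0% are shared with other transcripts, and ZNF257 with 69 and 573 reads (8.11-fold, 6.31 to 10.6). ZNF100 had 246 and 1800 reads (7.15-fold), and ZNF729 had 8 and 75 reads (9.16-fold, 4.42 to 22.0). Together ZNF100, ZNF43, ZNF208, ZNF257, ZNF676 and ZNF729 form a run of 6 adjacent members past 3-fold, the longest run on the chromosome. ZNF729, at the end of the run, reached the minimum of reads only through its count in CARM1 KO cells. The length of the run therefore depends in part on how the members were chosen. ZNF93, which is known to bind and repress LINE-1 retrotransposons, had 57 and 423 reads, 7.25-fold higher (5.49 to 9.73).

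The members of the cluster with the most reads in CARM1 KO cells were ZNF714 and ZNF431. ZNF714 had 1878 and 10761 reads, 5.60-fold higher (interval 5.33 to 5.88). Its level went from 7.51 to 42.0 RPKM. ZNF431 had 1382 and 6430 reads, 4.54-fold higher (4.29 to 4.82), and its level went from 3.14 to 14.3 RPKM. By level per exon kilobase, ZNF714 came next after ZNF146 among all members in CARM1 KO cells. ZNF724, at 15.1 RPKM in CARM1 KO cells, stood above ZNF431 by that measure. It had 370 and 1599 reads (4.22-fold higher), but 42.8% of its 75-base stretches also occur in transcripts of other genes, so its count depends on how RSEM divided shared reads.

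Of the other 12 members of the cluster past 3-fold, the folds ran from 3.54 to 7.81. ZNF66 had 11 and 88 reads, ZNF738 had 136 and 903, ZNF681 had 116 and 712, and ZNF85 had 132 and 774. ZNF726 had 106 and 603 reads, ZNF626 had 132 and 704, ZNF728 had 27 and 143, and ZNF253 had 69 and 360. ZNF738 shared 15.9% of its stretches with transcripts of other genes, the most among these 12, followed by ZNF90 and then ZNF66 with 6.22%. ZNF737 had 52 and 265 reads, ZNF493 had 91 and 452, ZNF506 had 104 and 492, and ZNF90 had 118 and 428. ZNF90 was the lowest of the 22, and its interval (2.88 to 4.38) reached below 3-fold.

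**Figure D3:**
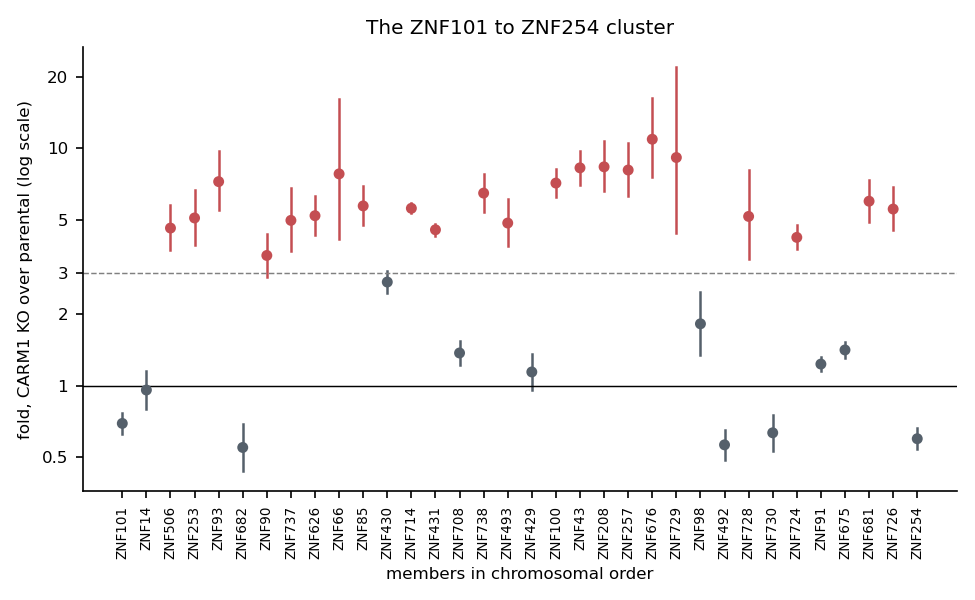
Fold of each of the 34 members of the ZNF101 to ZNF254 cluster, CARM1 KO over parental (vertical axis, log scale), in chromosomal order (horizontal axis); points are the TMM-scaled folds, lines their 95% binomial counting intervals, red marks members past 3-fold, and the dashed line is 3-fold. The 12 members in grey lie among the red ones and at both ends, between 0.551 for ZNF682 and 2.74 for ZNF430.

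The 12 members of the cluster under 3-fold were not at its edges only. ZNF430 came closest, with 437 and 1225 reads (2.74-fold, interval 2.45 to 3.06). ZNF91, which is known to repress SVA retrotransposons, had 1368 and 1731 reads, 1.24-fold higher (1.15 to 1.33). ZNF675 (1069 and 1551 reads), ZNF708 (472 and 665), ZNF429 (244 and 286) and ZNF98 (69 and 129) were between 1.14-fold and 1.83-fold higher. On the other side ZNF682, the lowest of the cluster, had 220 and 124 reads, 1.82-fold lower (1.45 to 2.28). ZNF492 (524 and 303 reads), ZNF254 (1048 and 643), ZNF730 (337 and 219) and ZNF101 (978 and 696) were between 1.44-fold and 1.77-fold lower, and ZNF14 had 248 and 244 reads. Of the 33 adjacent pairs in the cluster, 14 were both past 3-fold, 16 were split and 3 had neither.

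No protein-coding gene without a zinc-finger symbol reached 50 reads within the cluster. The annotation places 3 there, of which 1, an unnamed gene over ZNF493, had 0 reads in both libraries. The others, RPSA2 and an unnamed gene over ZNF724, had no entry under their identifiers among the counts. The 10 nearest such genes with enough reads on both sides, 5 on each, had a median log2 fold change of 0.27 (from -1.27 to 2.36), under that of the cluster. They were taken at any distance, and as the cluster reaches up to the centromere, those on that side need not be close to it. Of 14 long non-coding RNAs and pseudogenes of the span with at least 50 reads, 10 were more than 3-fold higher, against 11.4% of all genes of any type. The median log2 fold change of the 14 was 2.39. However, 10 of the 14 overlap an annotated protein-coding gene, most often a member, and 8 of these were more than 3-fold higher, against 2 of the 4 that overlap none. LINC00664, which overlaps ZNF429, had 85 and 739 reads, and LINC01224, which overlaps none, had 63 and 393 reads. IPO5P1 (462 and 243 reads) and ZNF849P (84 and 29 reads), both pseudogenes, were lower. Strand use in counting is not given in the sources used here, and overlap was taken over whole gene spans, introns included. The reads of a non-coding gene that overlaps a member may therefore include some of the member's own, and how many was not tested.

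The ZNF175 to ZNF331 cluster (chr19:52074536-54083523), on the long arm, had the next most, with 10 of 37 members more than 3-fold higher and none more than 3-fold lower. Its median log2 fold change was 0.49. ZNF525 had the largest rise, from 144 to 933 reads, 6.33-fold (interval 5.30 to 7.60). ZNF350, known as ZBRK1 for its binding to BRCA1, had 46 and 294 reads, 6.24-fold higher (4.56 to 8.71). ZNF578 (73 and 461 reads, 6.17-fold) and ZNF528 (150 and 902 reads, 5.87-fold) came next. The remaining 6 were ZNF415 (122 and 630 reads), ZNF813 (136 and 673), ZNF880 (123 and 598), ZNF701 (115 and 500), ZNF677 (153 and 656) and ZNF665 (37 and 145), from 5.04-fold down to 3.83-fold. They were spread through the cluster rather than adjacent, with a longest run of 3, ZNF880, ZNF528 and ZNF578.

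In the same cluster ZNF616 had the largest fall, from 563 to 256 reads, 2.25-fold (interval 1.94 to 2.62). ZNF480 had the highest level per exon kilobase in parental cells, 6.08 RPKM, with 917 and 1071 reads. ZNF331, an imprinted gene at the end of the cluster, had 660 and 521 reads. The 10 genes without a zinc-finger symbol nearest to the cluster had a median log2 fold change of -0.98, on the other side of 0 from the cluster.

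The ZNF565 to ZNF573 cluster (chr19:36673178-38307940), also on the long arm, had 5 of 24 members more than 3-fold higher, no member more than 2-fold lower and a median log2 fold change of 0.53. ZNF568, whose mouse counterpart represses a placental Igf2 transcript, had 179 and 794 reads, 4.33-fold higher (interval 3.68 to 5.12). ZNF382 (76 and 338 reads, 4.34-fold) and ZNF829 (233 and 1030 reads, 4.32-fold) were as high. ZNF793 had 167 and 634 reads, 3.71-fold higher, and ZNF566 had 1100 and 3620 reads, 3.21-fold higher, with an interval (3.0 to 3.44) that begins at the limit. ZNF345 was just under it, with 24 and 73 reads (2.97-fold, 1.85 to 4.93). ZNF571 was the lowest by log2 fold change, with 106 and 82 reads and an interval that includes no difference.

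This cluster also holds ZNF146, a protein of fingers without a KRAB domain, which had the highest level per exon kilobase of all members in both libraries. It had 6446 and 7662 reads, and its level was 49.96 and 58.0 RPKM, 1.16-fold higher (interval 1.12 to 1.2). Of 13 non-coding genes in the span, 9 were more than 3-fold higher, against 11.4% of all genes of any type. Of these 9, 3 were among the 5 that overlap no protein-coding gene.

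The ZNF264 to ZNF446 cluster (chr19:57702868-58992597), at the end of the long arm, had a median log2 fold change of -0.22. Of its 38 members, 4 (10.5%) were more than 3-fold higher, near the 11.4% of all genes. No pair of the 4 was adjacent. ZNF418 had 30 and 262 reads, 8.53-fold higher (interval 5.83 to 12.9). ZNF135 had 42 and 358 reads, 8.33-fold higher (6.04 to 11.8), and ZNF671 had 34 and 200 reads, 5.75-fold higher (3.98 to 8.53). ZNF671 is known to be silenced by promoter methylation in several carcinomas. ZNF544 had 323 and 1522 reads, 4.6-fold higher (4.08 to 5.21).

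Some members of the same cluster were lower. ZNF497 had 46 and 16 reads, 2.94-fold lower (interval 1.64 to 5.57), and ZNF584 had 482 and 214 reads, 2.31-fold lower (1.96 to 2.72). ZNF460 had its highest level per exon kilobase in parental cells, with 1225 and 890 reads. ZNF274, which binds the 3′ ends of other zinc-finger genes and recruits SETDB1 there, had 569 and 1208 reads, 2.07-fold higher (1.88 to 2.29).

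The ZNF558 to ZNF846 cluster (chr19:8574562-9903856) had 2 of 11 members more than 3-fold higher and a median log2 fold change of -0.15. When clusters were cut at gaps of 250 kb, the part that held its most-read member had a median of 0.16. ZNF559 had 109 and 468 reads, 4.19-fold higher (interval 3.40 to 5.21). Its neighbour ZNF177 had 9 and 88 reads, 9.55-fold higher (4.81 to 21.6), but 85.0% of its stretches occur in other genes' transcripts and it lies within the readthrough gene ZNF559-ZNF177 on the same strand. This cluster held abundant members. ZNF699 had 2978 and 7035 reads (2.31-fold higher, 2.21 to 2.41), ZNF121 had 5899 and 4009 reads (1.51-fold lower, 1.45 to 1.57) and ZNF317 had 1554 and 1334 reads. ZNF846 was the lowest, with 113 and 52 reads, 2.22-fold lower (1.59 to 3.15).

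The ZNF653 to ZNF791 cluster (chr19:11594242-12750912) tended the other way, with a median log2 fold change of -0.33 over 24 members and summed reads of 8259 and 6826. Of its members, 2 (8.33%) were more than 3-fold higher, under the 11.4% of all genes. ZNF439 had 57 and 285 reads, 4.88-fold higher (interval 3.66 to 6.61), and ZNF844 had 89 and 416 reads, 4.57-fold higher (3.62 to 5.81), with 43.7% of its stretches shared. ZNF491, with 96 and 32 reads, was 3.07-fold lower (2.04 to 4.74), and ZNF763, with 73 and 31 reads, was 2.41-fold lower (1.56 to 3.80). ZNF700 had the highest level per exon kilobase in parental cells, with 813 and 618 reads. Of the promoters of this cluster, 14 of 23 hold TCCAATCAGG, and whether that stretch bears on the folds was not tested.

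In the ZNF628 to ZNF835 cluster (chr19:55987984-57183151), 1 of 16 members was more than 3-fold higher and 1 was more than 3-fold lower, and the median log2 fold change was -0.48. When clusters were cut at gaps of 250 kb, the part that held its most-read member had a median of 0.20. The members left by a minimum of 200 reads had a median of 0.15. ZNF865 had 63 and 18 reads, 3.58-fold lower (interval 2.10 to 6.43). ZNF628 (43 and 16 reads, 2.75-fold) and ZNF784 (67 and 30 reads, 2.29-fold) were lower as well. These genes lie at the centromeric end of the cluster, where the first 9 members all had folds under 1, ZNF524 with an interval that includes 1. None of these 9 has a KRAB stretch in its protein. ZNF581, also among them, had the highest level per exon kilobase in parental cells, with 232 and 158 reads. The next member along the chromosome, ZNF582, had 76 and 285 reads and was 3.66-fold higher (2.83 to 4.78).

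The ZNF576 to ZNF180 cluster (chr19:44029649-45004576) was nearly the same in both libraries as a whole, with a median log2 fold change of 0.02 and summed reads of 7635 and 8098. Of its 21 members, 3 were more than 2-fold higher and 1 of these was past 3-fold. ZNF404 had 23 and 137 reads, 5.82-fold higher (interval 3.72 to 9.49). ZNF230 had 149 and 331 reads, 2.17-fold higher (1.78 to 2.65), and ZNF223 had 38 and 91 reads, 2.34-fold higher (1.59 to 3.51), with 43.2% of its stretches shared. ZNF428 had its highest level per exon kilobase, 11.1 and 11.2 RPKM, with 536 and 555 reads. ZNF235 was the lowest, with 229 and 141 reads. No member of ZNF302 to ZNF792 (5 members) or ZNF554 to ZNF77 (4 members) was past 3-fold. In the first, ZNF302 had the highest level (1034 and 1276 reads, 1.21-fold higher), ZNF792 had 101 and 125 reads, also 1.21-fold higher, and ZNF599 had the largest fall (146 and 102). In the second, ZNF554 had the largest rise (126 and 162 reads), and ZNF57 had both the highest level and the largest fall, with 432 and 201 reads, 2.20-fold lower (1.86 to 2.61).

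Among the 9 scattered members ZNF333 had 286 and 83 reads, 3.53-fold lower (interval 2.75 to 4.56), the largest fall of all members by log2 fold change. It overlaps ADGRE2 and ADGRE3, which lie on the opposite strand. ZNF114 had 602 and 1673 reads, 2.71-fold higher (2.47 to 2.98). ZNF473, a component of histone pre-mRNA processing, had 1003 and 1195 reads.

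**Figure D4:**
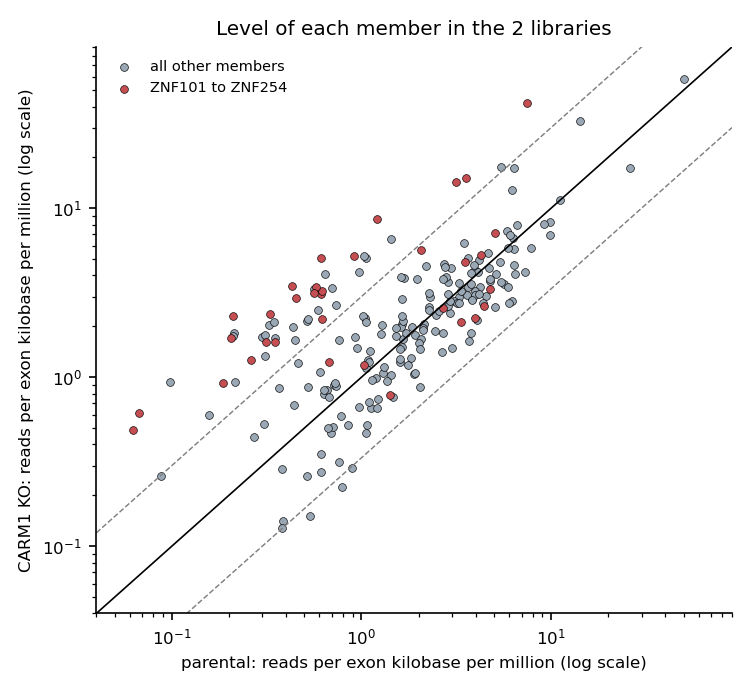
Level of each of the 223 members in CARM1 KO (vertical axis) against parental cells (horizontal axis), both as RPKM on log scales; each point is 1 gene, red marks the ZNF101 to ZNF254 cluster, the solid line is equal level and dashed lines are 3-fold. Most points above the upper dashed line lie under 1 in parental cells.

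The higher members shared a low level in parental cells. Of the 47 past 3-fold, 39 were under 1 RPKM in parental cells and 6 in CARM1 KO cells, with a median level of 0.454 and 2.30. Of the other 176 members, 35 were under 1 in parental and 41 in CARM1 KO cells, with a median of 2.12 and 2.17. The parental level also enters the fold, so this is a description and not an independent difference. By level, the highest 5 members in parental cells were ZNF146, ZNF121, ZNF699, ZNF428 and ZNF317, and none of them was past 3-fold.

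Members with a KRAB domain and members without one were compared by their coding sequences. A 40-residue KRAB stretch, derived from the members' own translated sequences, was found in 189 of 220 members with a coding sequence and missing in 31. Of the 189, 44 (23.3%) were more than 3-fold higher and 1 was more than 3-fold lower, with a median log2 fold change of 0.23. Of the 31, 1 (3.23%) was more than 3-fold higher, ZNF676, and 2 were more than 3-fold lower, with a median of -0.55. Among all genes 11.4% were more than 3-fold higher and 8.39% were more than 3-fold lower. In ZNF101 to ZNF254, 30 of 32 members with a coding sequence have the stretch. Outside that cluster the counts past 3-fold higher were 25 of 159 (15.7%) with it and 0 of 29 without it. The summed reads of the 31 went from 23038 to 22026, and those of the 189 from 76697 to 110415. The number of C2H2 fingers differed little, with a median of 11 in the higher members and 12 in the others.

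Gene pairs that share sequence or overlap limited what the counts can say. The median member shared 0.527% of its 75-base stretches with transcripts of other genes, and 20 members shared 20% or more. Of the 165 members under 5%, 34 (20.6%) were more than 3-fold higher, and within ZNF101 to ZNF254 the count was 17 of 27. Another protein-coding gene overlaps 92 members. Of the 131 members without such an overlap, 33 (25.2%) were more than 3-fold higher. The higher members were not of one orientation, with 27 of 123 on the plus strand and 20 of 100 on the minus strand.

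Genes that carry out KRAB repression were described from a fixed list, of which UHRF1 was not matched by its identifier. The other 24 all had enough reads. None was more than 2-fold higher, against 18.1% of all genes, and 4 (5 when scaled by library size only) were more than 2-fold lower, near the 15.0% of all genes. Their median log2 fold change was -0.33. TRIM28, the corepressor that binds the KRAB domain, had 4263 and 2902 reads, 1.5-fold lower (interval 1.43 to 1.58). SETDB1, which methylates histone H3 lysine 9, had 1801 and 927 reads, 1.99-fold lower (1.84 to 2.16), just inside the 2-fold limit. MPHOSPH8, a subunit of the HUSH silencing complex, had 3502 and 648 reads, 5.53-fold lower (5.09 to 6.03). Of the other HUSH subunits, TASOR had 7523 and 11352 reads and PPHLN1 had 2943 and 2488, neither past 2-fold. CBX5, the heterochromatin protein HP1 alpha, had 10837 and 4396 reads, 2.52-fold lower. ATRX, a chromatin remodeler of repeats, had 5524 and 2710 reads, 2.09-fold lower, and RESF1, a SETDB1 partner in retroelement silencing, had 1833 and 758 reads, 2.48-fold lower. Whether these levels bear on the ZNF genes was not tested.

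Near the limit of 50 reads the members were few. The nearest inside were ZNF524 (30 and 23 reads) and ZNF628 (43 and 16 reads), and the nearest outside were ZNF132 (8 and 41 reads) and ZNF99 (2 and 31 reads). Had both libraries held the parental count, 5 members would have missed the limit, ZNF177, ZNF66, ZNF729, ZNF345 and ZNF404, and 4 of these are among the 47. Of the other 218 members, 43 were more than 3-fold higher. ZNF66 and ZNF729 are among the 22 higher members of ZNF101 to ZNF254. With both at the CARM1 KO count, ZNF628, ZNF524, ZNF865, ZNF497 and ZNF837 would have missed it. Of the 15 genes outside, ZNF560, ZNF575 and ZNF534 were at 0 in both libraries. ZNF556, ZNF536, ZNF541, ZNF69, ZNF723, ZNF296 and ZNF486 had at most 11 reads in all, and ZNF154 (18 and 2), ZNF888 (9 and 17) and ZNF414 (18 and 10) had more. For a gene at 0 reads, up to 3 reads per library cannot be told apart from none.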

How the data were processed

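RNA from 1 parental and 1 CARM1 KO library of A1847 cells was prepared with a ScriptSeq complete Gold kit and sequenced as 75 bp paired-end reads. The authors used bowtie2 for alignment to hg19 and RSEM to estimate counts per Ensembl gene, whose version differs between their methods and their processing notes (1.2.3 in the notes), and the deposited expected counts are whole and unscaled. RSEM splits reads among similar sequences, so counts of near-identical copies are uncertain. Whether strand was used, the Ensembl release and the dispersion are not given in the sources used here.

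Of 57736 identifiers, 55501 were named with GENCODE 44 lifted to GRCh37. The members and the gene lists were chosen with earlier results of these data known. Counts were scaled over the whole table by TMM in edgeR 4.0.16 under R 4.3.3. Calls used the scaled fold (3-fold, and 2-fold as a lower limit). Log2 fold changes used a prior count of 2, and intervals came from scipy 1.17.1. Folds carry no p-value, because the groups hold 1 library each. Levels (RPKM) are TMM-scaled reads per kilobase of annotated exon and per 1000000 library reads. Clusters were runs of these genes, expressed or not, with gaps under 500 kb, and runs with fewer than 4 members were called scattered. Fingers and KRAB stretches were counted in translated GENCODE coding sequences, a KRAB stretch being at least 12 residues identical to a 40-residue consensus of the members. Promoters came from RefSeq tables of GRCh38.p14, and their positions were found by exact match in GRCh37. The scaling and fold steps were tested on simulated counts.

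The members named are those past 3-fold, the 10 largest rises and falls, the largest rise, largest fall and highest level of each cluster, the 5 highest levels, those nearest the read limit, and the KRAB repression genes past 2-fold with TRIM28, SETDB1 and ZNF274. Other members were named after their values were seen, as were the non-coding genes, TASOR and PPHLN1. Both promoter stretches were chosen from the sequences by a search, after the calls were known. The alternatives were other scalings (none beyond library size, the size factors of DESeq2 1.42.0, upper quartiles, and TMM over protein-coding genes), other minimums of reads, wider symbols, a prior count of 0.125, other gaps and edgeR's exact test with an assumed coefficient of variation. A marker of the list for other cells is not reported here.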

Additional observations from a re-analysis of the deposited data

How the results depend on the processing

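No paired analysis was possible because each condition had 1 library, and no replicate could be left out. The scaling moved the median of all genes by under 0.1 on the log2 scale, and the other scalings gave 47 or 48 members more than 3-fold higher. Members more than 3-fold lower numbered 2 to 4 under them, 5 with a minimum of 1 read and 1 with a minimum of 200 reads. Members more than 2-fold lower were 7 of the 15 with a minimum of 200 reads, fewer genes being tested. edgeR's exact test with an assumed coefficient of variation of 0.4, at an FDR under 0.05, left 10 members higher and 0 lower past 3-fold, beside 2.19% and 4.11% of all genes, and 7 of these 10 lie in ZNF101 to ZNF254, while with 0.12 it kept 47 and 3. With gaps of 250 kb some clusters split (12 in place of 10), and each median then is that of the part holding the cluster's most-read member. For ZNF628 to ZNF835, at -0.48, that part had 0.20, and the members left by a minimum of 200 reads had 0.15. For ZNF558 to ZNF846, at -0.15, that part had 0.16. The sign in both depends on which members are counted, so neither has a firm direction. The ZNF101 to ZNF254 median stayed between 2.22 and 2.29. Without members that share 20% or more of their stretches, added after the data were seen, 43 members were higher, 20 of them in ZNF101 to ZNF254. None of 424 values of 106 members named in the text left its counting interval under 3 other scalings and the other prior count. A scaling shifts every gene by the same small amount, less than even the narrowest of these intervals allows, so for the scalings this outcome was fixed in advance. Depth limits the members with few reads, whose intervals are widest.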

Other observations

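Zinc-finger genes of chromosome 19 outside the symbol rule gave further values. Among 18 with other zinc-finger symbols (such as ZFP or ZSCAN), 2 were more than 3-fold higher, 1 was more than 3-fold lower, and the median log2 fold change was -0.28. Some symbols with a letter after the number are neighbouring copies. ZNF585A had 154 and 412 reads (parental first), and ZNF585B had 135 and 404, both under 3-fold. ZNF780A (1224 and 754 reads) and ZNF780B (831 and 571 reads) were both lower. How RSEM divided reads between such copies was not tested.

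Of 23 ZNF-named non-coding genes and pseudogenes with at least 50 reads, 8 (34.8%) were more than 3-fold higher and none was more than 3-fold lower, against 11.4% and 8.39% of all genes of any type. The reads of the 23 summed to 7749 and 17778. Among the non-coding genes within the span of ZNF101 to ZNF254, an unnamed lncRNA on the minus strand (chr19:21752540-21770124) had 1 and 102 reads, and an unnamed transcribed pseudogene on the plus strand (chr19:23973574-24016116), within RPSA2, had 50 and 472 reads. In ZNF653 to ZNF791, the cluster whose members were lower in the median, the 5 coding genes without a zinc-finger symbol had 4638 and 1367 reads, and 2 of them were more than 3-fold lower.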
